A study of Homo sapiens with 6 samples.

Results

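Glycolysis and the hypoxia response were followed through 36 genes in dopamine-treated SK-N-SH, a neuroblastoma line of human origin that mixes adrenergic and mesenchymal cells. The genes were chosen by name from the pathway, with earlier results of these data known. All 36 had 1 row each among the 26789 genes of the deposited table of FPKM (fragment counts normalised for gene length and library size). Of the 36, 33 passed a filter of a mean of at least 1 FPKM over all 6 libraries. The 3 below it, PDK1, ANKRD37 and KDM3A, are given as values without a test. The 3 dopamine libraries came from cells kept 6 h in medium with dopamine and the 3 control libraries from cells kept in medium alone. Cells of both groups were labelled wild type and had first grown for a day in standard medium. Dopamine is labelled at 40 M, where a unit prefix is probably missing, and no dose is read from it. The series' design text names SH-SY5Y, a subline of SK-N-SH, as the treated cells, while every sample is labelled SK-N-SH. Nothing in the labels says that the replicates came from separate cultures, so p-values measure the spread between these libraries, which may be technical.

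Glycolysis splits glucose into pyruvate in the cytosol, and lactate dehydrogenase turns pyruvate into lactate, which restores the NAD+ that the pathway needs. Many of its genes are targets of hypoxia-inducible factors, dimers of an oxygen-labile alpha subunit (encoded by HIF1A or EPAS1) and a stable partner (encoded by ARNT). In oxygen, prolyl hydroxylases mark the alpha subunit for destruction through the VHL ubiquitin ligase, and because this control acts on the protein, mRNA of the alpha subunits does not report its activity. The hydroxylases use iron and 2-oxoglutarate. Neuroblastoma arises from the sympathoadrenal lineage, in which EPAS1 is known to be abundant.

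The labelled cell type was checked with markers. All 8 adrenergic neuroblastoma markers (such as PHOX2A, HAND2 and GATA3) and all 6 mesenchymal ones (such as VIM and PRRX1) had a mean of at least 1 FPKM. The summed endothelial and leukocyte markers stayed at or below 1.21 FPKM in every library. Of 6 epithelial markers, KRT18, KRT8 and KRT19 were detected, and the list summed to 105 to 121 FPKM in dopamine libraries and 140 to 175 FPKM in control libraries, with EPCAM, CDH1 and ESRP1 at or below 0.169 FPKM on average in either group. Recovered depth ran from 19356000 to 24221000 fragments a library, which makes 1 FPKM worth 19.36 to 24.22 fragments per kilobase of gene. Expression also moved with GC content differently in the groups: the slope of a library's deviation per 10 points of GC was -0.031, -0.061 and -0.255 log2 units in dopamine replicates 1, 2 and 3, and 0.021, 0.108 and 0.218 in control replicates 1, 2 and 3. The part of either shift (epithelial keratins or GC slope) in the results was not tested, and values with the GC content and length of transcripts corrected for are given beside them. In bulk RNA, fewer cells of a type and less RNA per cell cannot be told apart.

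No gene of the pathway passed an adjusted p of 0.05 (limma on log2(FPKM + 0.5), two-sided, Benjamini-Hochberg over all 11791 tested genes), where 0.102% of all tested genes did (0.0848% higher and 0.017% lower with dopamine). Glycolysis and hypoxia genes leaned opposite ways. Of 20 tested glycolysis genes 15 had a lower mean with dopamine (median log2 fold change -0.16), against 40% of all tested genes. Of 13 tested hypoxia genes 11 had a higher one (median 0.23), against 60% of all tested genes. The median over all tested genes was 0.08. At an unadjusted p under 0.05 lay 8 members that were higher with dopamine (24.4% of all tested genes were) and 4 that were lower (8.05% of all were). The smallest adjusted p in limma was 0.11, shared by EPAS1, PFKP, LDHA and BNIP3L.

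In 14 of 33 members the dopamine and control values did not overlap, against 38.4% of all tested genes, so the list as a whole stood near the background. Of these members 9 were above control (24.4% of all genes) and 5 below it (14.1%). With libraries rescaled by the median of ratios, the split at an unadjusted p under 0.05 was 7 higher and 10 lower, against 16.1% and 14.9% of all genes. With quantile normalization it was 8 and 8, against 14.5% and 14.7% of all genes. After the GC and length correction it was 3 higher and 6 lower, against 8.37% and 8.45% of all genes (16.8% in either direction).

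**Figure D1:**
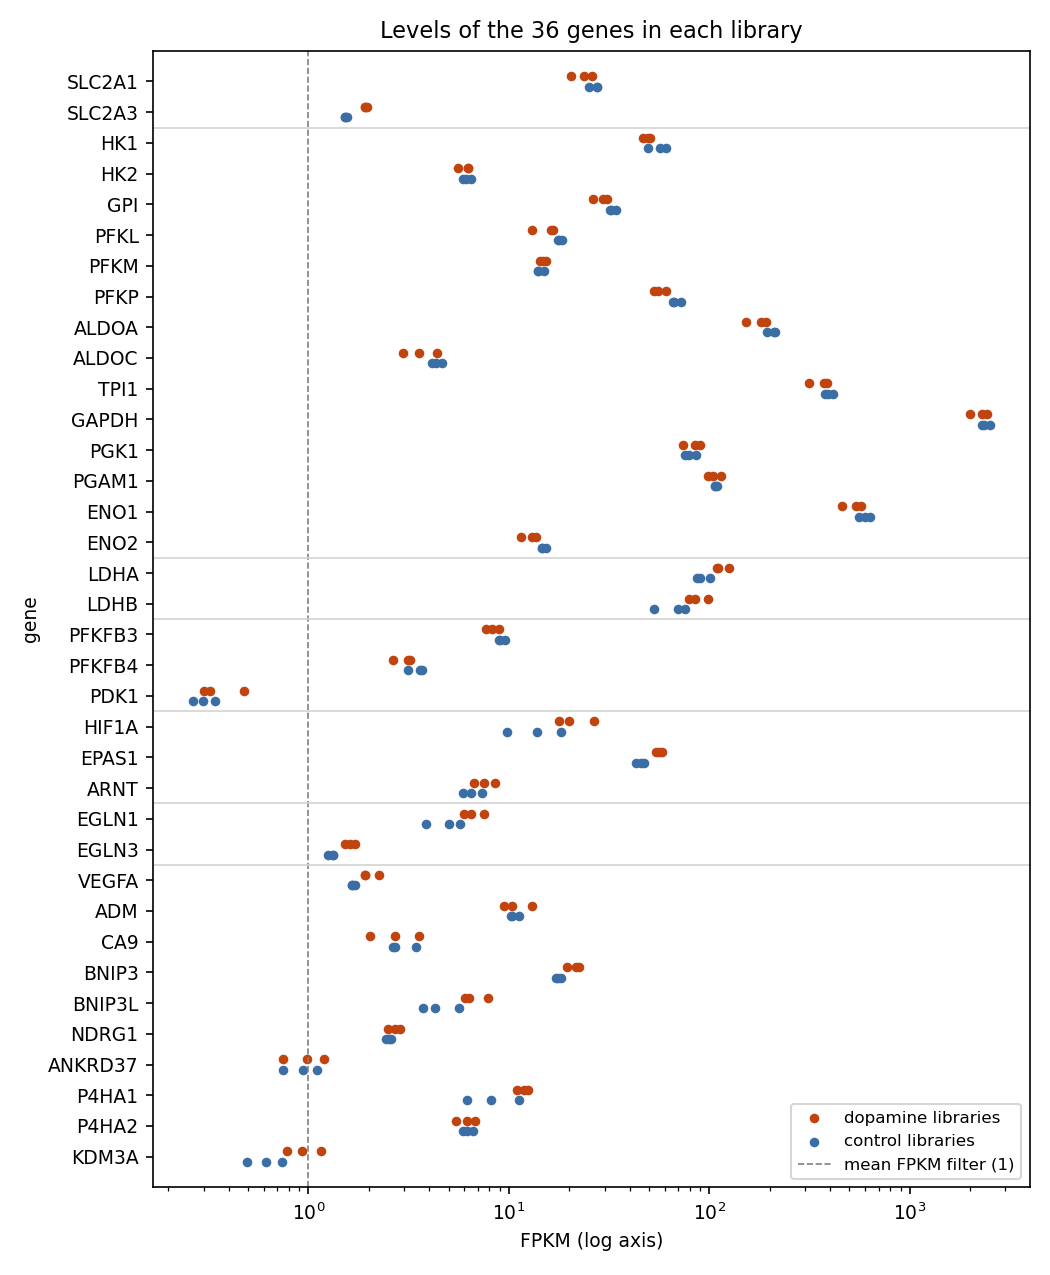
FPKM of the 36 genes in each library on a log axis, grouped by role, with dopamine libraries above control libraries for each gene. Levels span from 0.266 FPKM (PDK1, control replicate 3) to 2509 FPKM (GAPDH, control replicate 2), and the dashed line marks the filter of 1 FPKM on the mean.

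Promoters are shown first for 5 members, because hypoxia-inducible factors bind the core ACGTG or GCGTG and the members differ in whether these letters stand close to their start. The 250 bases before the first listed start of each gene were read from RefSeq (build GRCh38.p14), 32 of 36 members matched, and both strands were searched, so CACGTG counts as 2 overlapping matches of ACGTG. Capitals mark the matches of either motif. LDHA and BNIP3 were members with dopamine values above all control values, PGK1 and GAPDH had overlapping groups, and ENO2 had dopamine values below all control values.
LDHA (GRCh38.p14 chr11:18394313-18394562, plus strand): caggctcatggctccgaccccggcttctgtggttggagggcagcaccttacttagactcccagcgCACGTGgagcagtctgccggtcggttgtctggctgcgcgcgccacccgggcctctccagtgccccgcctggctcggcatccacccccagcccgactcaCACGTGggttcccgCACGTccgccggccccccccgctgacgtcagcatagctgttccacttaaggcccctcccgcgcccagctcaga
BNIP3 (GRCh38.p14 chr10:131981924-131982173, minus strand): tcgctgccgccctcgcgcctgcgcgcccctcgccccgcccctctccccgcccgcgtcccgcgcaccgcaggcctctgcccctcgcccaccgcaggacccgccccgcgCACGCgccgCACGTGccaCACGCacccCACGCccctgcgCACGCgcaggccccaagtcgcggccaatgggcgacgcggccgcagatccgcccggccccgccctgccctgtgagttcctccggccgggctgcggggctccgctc
PGK1 (GRCh38.p14 chrX:78103998-78104247, plus strand): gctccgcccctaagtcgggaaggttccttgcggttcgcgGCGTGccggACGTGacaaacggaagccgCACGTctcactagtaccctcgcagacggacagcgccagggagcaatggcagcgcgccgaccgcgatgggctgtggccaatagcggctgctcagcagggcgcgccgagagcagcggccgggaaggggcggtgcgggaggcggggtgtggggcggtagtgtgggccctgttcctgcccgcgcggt
GAPDH (GRCh38.p14 chr12:6535014-6535263, plus strand): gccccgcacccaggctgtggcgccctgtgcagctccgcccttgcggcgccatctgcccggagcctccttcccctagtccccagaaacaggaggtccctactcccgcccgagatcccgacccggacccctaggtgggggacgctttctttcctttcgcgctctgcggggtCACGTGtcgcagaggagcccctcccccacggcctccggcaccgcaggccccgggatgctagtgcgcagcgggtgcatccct
ENO2 (GRCh38.p14 chr12:6914330-6914579, plus strand): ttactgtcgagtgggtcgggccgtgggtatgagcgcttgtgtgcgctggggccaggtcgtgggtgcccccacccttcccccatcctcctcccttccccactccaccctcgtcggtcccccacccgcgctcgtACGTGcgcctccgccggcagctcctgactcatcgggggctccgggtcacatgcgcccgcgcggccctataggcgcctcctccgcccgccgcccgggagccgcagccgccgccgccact
LDHA held 5 matches of ACGTG and none of GCGTG, and BNIP3 held 2 of ACGTG and 4 of GCGTG. PGK1 held 2 and 1, GAPDH held 2 of ACGTG, and ENO2 held 1 of ACGTG. Over the list ACGTG was present in 13 of 32 windows (40.6%), against 20.8% of 15843 windows of protein-coding genes, and GCGTG in 12 of 32 (37.5%), against 39.2%. Among tested members with a window, ACGTG was present in 3 of 6 whose dopamine values lay above control, 3 of 5 whose values lay below, and 6 of 18 whose groups overlapped. These matches describe letters only and are not binding sites.

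Glucose enters through SLC2A1, the widely expressed transporter GLUT1, and SLC2A3, the high-affinity transporter GLUT3 of neurons. SLC2A1 had 23.6, 26.1 and 20.4 FPKM in dopamine replicates 1, 2 and 3, against 25.2, 27.4 and 27.6 FPKM in control replicates 1, 2 and 3. The groups overlapped (log2 fold change -0.20, SE 0.10, limma adjusted p = 0.194). SLC2A3 had 1.97, 1.91 and 1.92 FPKM with dopamine, against 1.56, 1.53 and 1.53 FPKM in control. Its groups lay apart with little spread in either, but the fold change was small (log2 fold change 0.25, SE 0.12, adjusted p = 0.165) and close to 0 after the GC and length correction (0.03, SE 0.10).

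The 14 enzyme genes from hexokinase to enolase ran from some of the most abundant messages of these cells to low ones. GAPDH, the oxidising step and a common reference gene, ranked 4 by mean FPKM among protein-coding genes, ENO1 (enolase) 28, TPI1 (triose phosphate isomerase) 56 and ALDOA (aldolase) 145, whereas HK2 ranked 5303 and ALDOC 6633. The FPKM of the 14 summed to 3775, 3975 and 3281 in dopamine replicates 1, 2 and 3, against 3818, 4170 and 3946 in control replicates 1, 2 and 3. This was 1.57% of the summed FPKM of all genes in dopamine libraries and 1.69% in control libraries. The sums of the groups overlapped, and dopamine replicate 3 was the lowest of the 6 libraries.

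Of these enzyme genes 12 of 14 had a lower mean with dopamine, as they did after TPM and quantile scaling and after the GC and length correction, and 14 of 14 did after median-of-ratios scaling. A lower mean was seen in 40% of all tested genes as deposited, 50% after median-of-ratios scaling and 50.2% after the correction. The enzymes had a median GC content of 53.7%. Among all tested genes with at least 50% GC, 4051 of 5597 had a lower mean as deposited. The median log2 fold change of the enzymes was -0.18, and -0.16 after the correction, while over all tested genes it was 0.08 and 0. At an unadjusted p under 0.05, 4 enzymes were lower and none higher (limma), and after the correction 6 were lower and none higher, where 8.05% and 8.45% of all tested genes were lower. Without both replicates numbered 3, the libraries with the steepest GC slopes, 11 of 14 enzymes had a lower mean, the median was -0.1, and 1 enzyme was lower at an unadjusted p under 0.05, against 4.42% of all genes.

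PFKP, the platelet-type phosphofructokinase that runs the committed step, had 53.1, 61 and 55.2 FPKM with dopamine, against 65.6, 66.3 and 72.5 FPKM in control. All dopamine values lay below all control values (log2 fold change -0.27, SE 0.08, unadjusted p = 0.00828, adjusted p = 0.11), and the log2 fold change was -0.17 (SE 0.07) after the correction. PFKL, the liver-type subunit, had 16.2, 16.6 and 13 FPKM against 17.5, 18.5 and 17.8 FPKM in control. Dopamine replicate 3 was the lowest, and the log2 fold change of -0.23 (SE 0.10, adjusted p = 0.15) was -0.07 (SE 0.07) after the correction. PFKM, the muscle-type subunit, had 15.3, 14.3 and 14.8 FPKM with dopamine, against 15, 14 and 14 FPKM in control, with overlapping groups and a log2 fold change of 0.05 that was -0.04 after median-of-ratios scaling and -0.002 after quantile normalization.

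ENO2, the neuron-specific enolase used as a neuroblastoma serum marker, had 13.6, 13.1 and 11.5 FPKM in dopamine libraries, against 14.7, 14.6 and 15.4 FPKM in control libraries. Its groups did not overlap (log2 fold change -0.22, SE 0.09, adjusted p = 0.133), and the log2 fold change was -0.17 (SE 0.05) after the correction. ALDOA had 182, 191 and 152 FPKM with dopamine, against 193, 213 and 211 FPKM in control (log2 fold change -0.24, SE 0.10, adjusted p = 0.138, and -0.20 after the correction). GPI, the isomerase after hexokinase, stood at 28.9 ± 2.25 FPKM with dopamine and 32.8 ± 1.23 FPKM in control (mean ± SD, n = 3 each, as in all such pairs), and its groups lay apart as well (adjusted p = 0.156).

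The remaining enzymes had overlapping groups. ENO1 had 540, 569 and 457 FPKM with dopamine, against 559, 635 and 599 FPKM in control (log2 fold change -0.20, adjusted p = 0.197). GAPDH had 2303, 2433 and 2004 FPKM with dopamine, against 2287, 2509 and 2340 FPKM in control, a log2 fold change of -0.09 (SE 0.11) that turned to 0.03 after the correction. An antisense transcript listed over GAPDH (RP5-940J5.9) averaged 194 FPKM, and without the strand setting of the counting its fragments and those of GAPDH cannot be told apart. HK1, the constitutive hexokinase, had 49.3, 46.9 and 50.7 FPKM with dopamine, against 56.9, 49.5 and 60.6 FPKM in control. HK2, the inducible one, had 5.58, 6.24 and 6.28 FPKM with dopamine, against 6.48, 5.91 and 6.1 FPKM in control, so neither hexokinase had groups apart. ALDOC, the brain-type aldolase, had 4.4, 3.57 and 2.97 FPKM with dopamine, against 4.66, 4.12 and 4.31 FPKM in control. TPI1, PGAM1 (phosphoglycerate mutase) and ALDOC had log2 fold changes of -0.14, -0.03 and -0.24, with adjusted p-values of 0.303, 0.774 and 0.24 (limma). PGK1, an ATP-making kinase and a hypoxia target, had a log2 fold change of 0.05 (SE 0.09) as deposited and -0.26 (SE 0.15) after the correction.

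The lactate dehydrogenase genes went the other way from the enzymes before them. LDHA, the muscle-type subunit and a hypoxia target, had 109, 110 and 126 FPKM in dopamine replicates 1, 2 and 3, against 101, 89.5 and 86.9 FPKM in control replicates 1, 2 and 3. Every dopamine value exceeded every control value (log2 fold change 0.31, SE 0.09, unadjusted p = 0.00697, adjusted p = 0.11). LDHB, the heart-type subunit, had 79.2, 84.5 and 98.3 FPKM with dopamine, against 75.5, 69.8 and 53 FPKM in control (log2 fold change 0.41, SE 0.13, adjusted p = 0.112). Dopamine replicate 3 was the highest and control replicate 3 the lowest for LDHB, the pair of libraries at the ends of the GC slopes. After the correction the log2 fold changes were 0.04 (SE 0.05) for LDHA and 0.24 (SE 0.11) for LDHB, and without both replicates numbered 3 they were 0.20 and 0.17.

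Of the regulators of glycolysis, PFKFB3 ranked 4250 by mean FPKM among protein-coding genes and PFKFB4 ranked 7315. PFKFB3 and PFKFB4, which make and break the phosphofructokinase activator fructose 2,6-bisphosphate, stood at 8.28 ± 0.625 and 2.99 ± 0.315 FPKM with dopamine, against 9.16 ± 0.341 and 3.47 ± 0.297 FPKM in control, with adjusted p-values of 0.292 and 0.294 (limma). PDK1, the kinase that shuts off pyruvate dehydrogenase in hypoxia, had 0.3, 0.324 and 0.48 FPKM with dopamine, against 0.344, 0.298 and 0.266 FPKM in control. It lay under the filter and its groups overlapped.

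**Figure D2:**
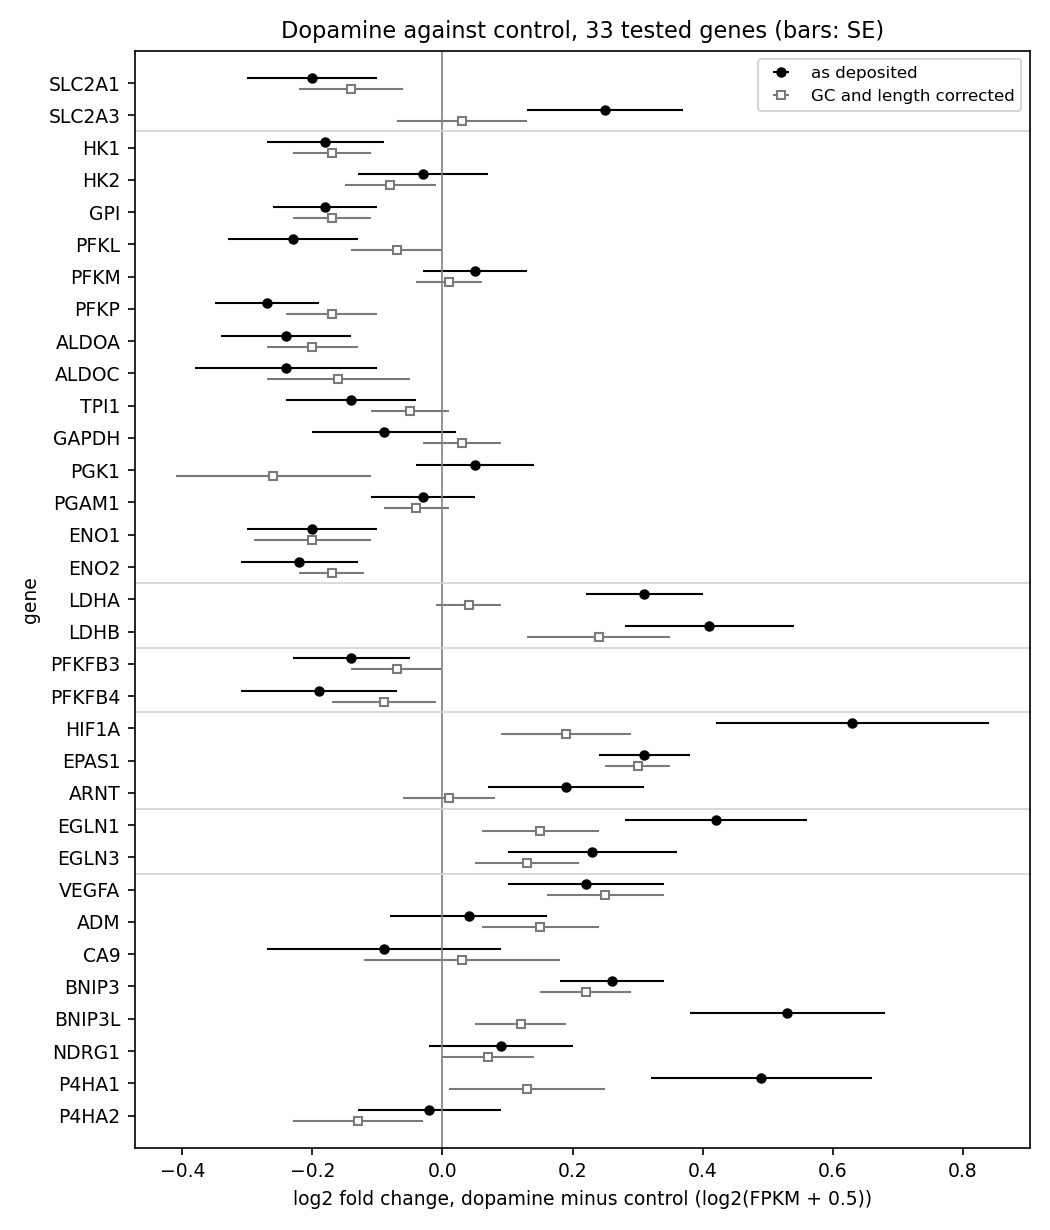
Log2 fold change of dopamine minus control for the 33 tested genes, as deposited (filled circles) and after the GC and length correction (open squares), with bars of 1 SE and lines between roles. Most glycolytic enzymes lie left of 0 in both, EPAS1, BNIP3 and VEGFA lie right of 0 in both, and HIF1A, BNIP3L and P4HA1 move toward 0 with the correction.

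Among the factors themselves, EPAS1 (HIF-2 alpha) had the smallest p of all members. It had 54.2, 56.4 and 57.9 FPKM in dopamine libraries, against 47.4, 42.9 and 45.4 FPKM in control libraries. The groups lay apart and neither had a stray library (log2 fold change 0.31, SE 0.07, 1.24-fold, unadjusted p = 0.00194, adjusted p = 0.11). The value was 0.30 (SE 0.05) with GC and length corrected for, where the adjusted p was 0.0948, and 0.29 without both replicates numbered 3, and it lay between 0.22 and 0.35 over the 20 alternative settings. EPAS1 (ENSG00000116016.9) lies on hg19 chromosome 2 from 46520806 to 46613836.

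HIF1A (HIF-1 alpha) had the largest fold change of the tested members, and its control libraries spread widely. Its values were 17.7, 20 and 26.5 FPKM with dopamine, against 18.1, 13.8 and 9.74 FPKM in control. The groups overlapped, since control replicate 1 was above dopamine replicate 1 (log2 fold change 0.63, SE 0.21, unadjusted p = 0.0141, adjusted p = 0.113). The highest control library was 1.86 times the lowest, the largest such ratio among the tested members. With a GC content of 36.4%, the lowest of the list, its log2 fold change was 0.19 (SE 0.10) after the correction and 0.25 without both replicates numbered 3. ARNT, the partner subunit, had 7.53, 6.67 and 8.55 FPKM with dopamine, against 7.31, 5.9 and 6.46 FPKM in control, with overlapping groups (adjusted p = 0.266).

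Both oxygen-sensing hydroxylase genes among the members had dopamine values above all control values, as did 24.4% of all tested genes. The related EGLN2, not a member, lay under the filter with overlapping groups. It had 0.565, 0.588 and 0.555 FPKM with dopamine, against 0.542, 0.489 and 0.566 FPKM in control. EGLN1 (PHD2), the main one in most cells, had 5.95, 6.44 and 7.51 FPKM with dopamine, against 5.69, 5.05 and 3.88 FPKM in control (log2 fold change 0.42, SE 0.14, adjusted p = 0.116, and 0.15 after the correction). EGLN3 (PHD3), a hypoxia target studied in sympathetic neuron death, had 1.71, 1.52 and 1.61 FPKM with dopamine, against 1.33, 1.26 and 1.33 FPKM in control. Its log2 fold change was 0.23 (SE 0.13, adjusted p = 0.223), 0.13 (SE 0.08) after the correction and 0.06 with quantile normalization. SPTSSA, whose annotated span overlaps EGLN3, averaged 8.98 FPKM.

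**Figure D3:**
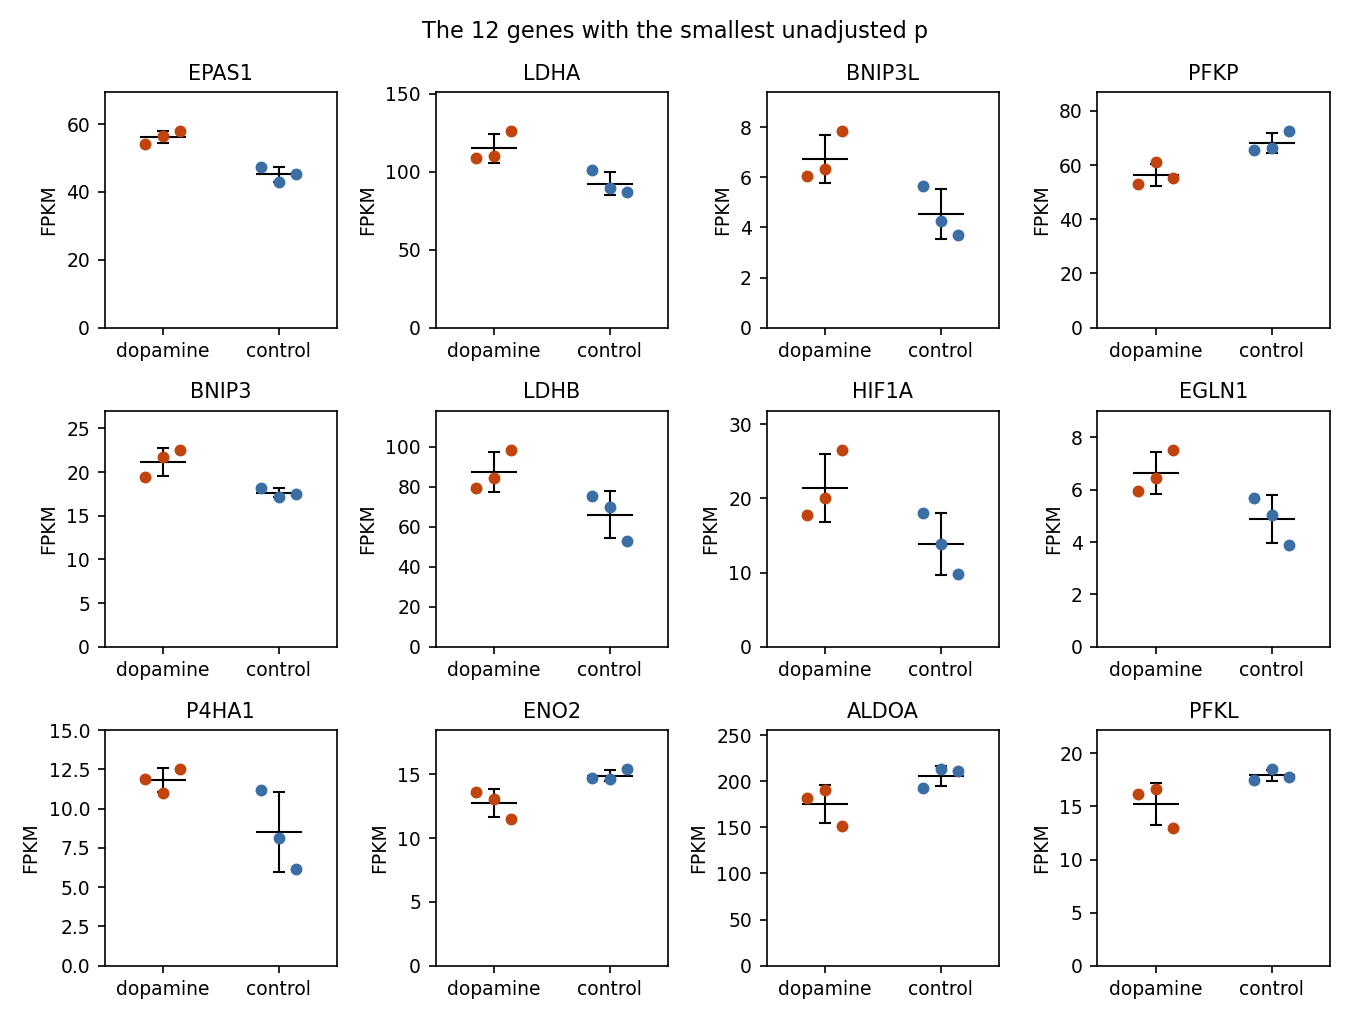
FPKM of the 12 members with the smallest unadjusted p in the 3 dopamine (left) and 3 control (right) libraries, with the mean and SD as bars. EPAS1, LDHA, BNIP3L, BNIP3, LDHB and EGLN1 have all dopamine points above the control points, PFKP, ENO2, ALDOA and PFKL have them below, and HIF1A and P4HA1 overlap.

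Of the effectors, BNIP3 and BNIP3L encode related mitochondrial proteins that call for mitophagy. BNIP3 had 19.4, 21.7 and 22.5 FPKM with dopamine, against 18.2, 17.2 and 17.5 FPKM in control. All dopamine values were the higher ones (log2 fold change 0.26, SE 0.08, unadjusted p = 0.012, adjusted p = 0.111), and the log2 fold change was 0.22 (SE 0.07) after the correction. BNIP3L had 6.05, 6.31 and 7.83 FPKM, against 5.63, 4.27 and 3.71 FPKM in control. Its log2 fold change of 0.53 (SE 0.15, adjusted p = 0.11) was 0.12 (SE 0.07) after the correction, and its GC content was 38.9%.

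VEGFA, the angiogenic growth factor, was low, at 1.92, 1.92 and 2.24 FPKM with dopamine against 1.65, 1.71 and 1.65 FPKM in control. The groups lay apart (log2 fold change 0.22, SE 0.12, adjusted p = 0.232), and the log2 fold change after the correction was 0.25 (SE 0.09, unadjusted p = 0.023, adjusted p = 0.233). For VEGFA it was 0.15 with median-of-ratios scaling, 0.04 with quantile normalization and 0.15 without both replicates numbered 3. CA9, the membrane carbonic anhydrase often used as a mark of hypoxic tumour cells, had 2.69, 3.55 and 2.02 FPKM with dopamine, against 3.45, 2.69 and 2.64 FPKM in control, so its groups overlapped (log2 fold change -0.09, SE 0.18). ADM, the vasodilator peptide adrenomedullin, and NDRG1, a stress-induced gene, had log2 fold changes of 0.04 and 0.09 as deposited, -0.05 and 0.01 with median-of-ratios scaling, and -0.04 and -0.1 with quantile normalization.

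P4HA1 and P4HA2 encode alpha subunits of the collagen prolyl hydroxylase. P4HA1 had 11.9, 11 and 12.5 FPKM with dopamine, against 11.2, 8.11 and 6.18 FPKM in control. Control replicate 1 reached into the dopamine range, and the log2 fold change of 0.49 (SE 0.17, adjusted p = 0.117) was 0.13 (SE 0.12) after the correction. P4HA2 had 6.81, 6.19 and 5.44 FPKM with dopamine, against 6.61, 6.17 and 5.88 FPKM in control, with overlapping groups, and PDLIM4, whose annotated span overlaps it, averaged 22.6 FPKM. The histone demethylase gene KDM3A, under the filter, had 0.931, 0.78 and 1.15 FPKM with dopamine, against 0.741, 0.618 and 0.494 FPKM in control. ANKRD37, a small hypoxia target also under the filter, had 0.748, 1.2 and 0.979 FPKM with dopamine, against 1.11, 0.944 and 0.75 FPKM in control.

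Over the 13 tested hypoxia genes, 11 had a higher mean with dopamine as deposited, 10 with median-of-ratios scaling and 9 with quantiles equalised. After the GC and length correction it was 12, and without both replicates numbered 3 it was 13. Of all 11791 tested genes, 60% had a higher mean as deposited, 5901 with median-of-ratios scaling and 5692 with quantiles equalised. After the correction 49.8% of all did, and 7421 did without both replicates numbered 3. The median log2 fold change of the hypoxia genes was 0.23 as deposited, 0.13 after the correction and 0.19 without those libraries. All tested genes had 0.08, 0 and 0.06. At an unadjusted p under 0.05 lay 6 as deposited, 3 after the correction (EPAS1, BNIP3 and VEGFA) and 2 without those libraries, each higher with dopamine. The shares of all tested genes that were higher by the same measure were 24.4%, 8.37% and 8.65%.

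Fold changes followed GC content across the members, as they did across all genes. Pearson's r between GC content and log2 fold change was -0.82 over the 33 members and -0.75 over 11579 tested genes with an annotation, and -0.32 and -0.03 after the correction. The correction was fitted on these same 11579 genes, so the value of -0.03 follows from the fit. The points share the same 6 libraries, and genes are not independent replicates. Members under 50% GC had a median log2 fold change of 0.31, beside 0.3 over all genes under 50%. A higher mean was seen in 10 of these 11 members, against 90.4% of all genes under 50%. Members at 50% or over had a median of -0.14, beside -0.1 over all such genes. Of these 22 members 6 had a higher mean, against 27.6% of all such genes, so both splits stood near the background. Glycolytic enzymes had a median GC content of 53.7% and all tested hypoxia genes 49.4%, equal to the median of all tested genes.

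**Figure D4:**
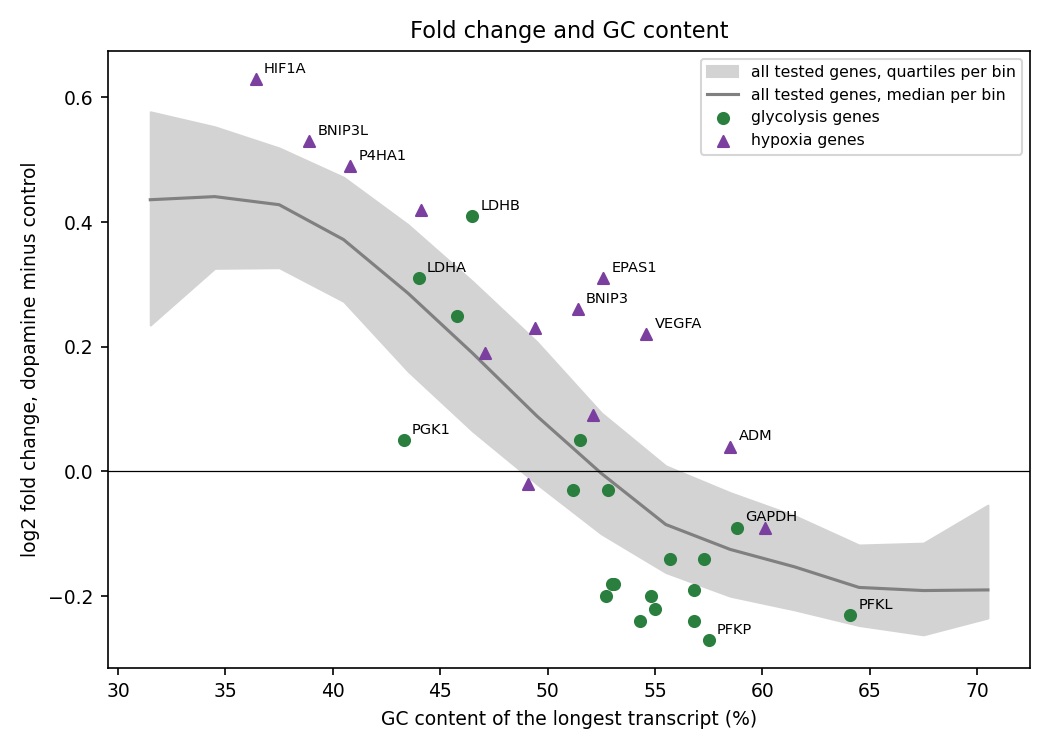
Log2 fold change against GC content of the longest transcript for the 33 tested members (green circles, glycolysis genes, and purple triangles, hypoxia genes), over the median and quartiles of all tested genes in bins of 3 points of GC. By definition, about as many of all tested genes in a bin lie outside the quartiles as between them, in equal shares above and below. A place outside is therefore not rare. Above the grey band of quartiles lie 9 of 13 hypoxia genes, among them EPAS1 (52.6% GC) and HIF1A (36.4%), and 1 of 20 glycolysis genes, LDHB. Below it lie 10 of 20 glycolysis genes, among them PFKP (57.5%), ENO1 (52.7%) and PGK1 (43.3%), and 1 hypoxia gene, P4HA2.

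Ratios between related genes within a library do not move with its scaling, and 12 were compared with an exact permutation test (two-sided, whose smallest p with 3 against 3 is 0.1). SLC2A3 over SLC2A1 had a log2 ratio of -3.59, -3.77 and -3.4 in dopamine libraries, against -4.02, -4.16 and -4.17 in control libraries. The GLUT3 message was thus 0.0832, 0.0731 and 0.0944 of that of GLUT1 with dopamine, and 0.0619, 0.0558 and 0.0555 in control, with no overlap (exact permutation p = 0.1, adjusted over the 12 ratios 0.3). P4HA2 over P4HA1 had log2 ratios of -0.81, -0.83 and -1.2 with dopamine, against -0.76, -0.39 and -0.07 in control, also without overlap (exact permutation p = 0.1). The members of both pairs differ in GC content, 45.8% for SLC2A3 against 54.8% for SLC2A1, and 49.1% for P4HA2 against 40.8% for P4HA1.

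Phosphofructokinase was mostly PFKP. By FPKM its share of the 3 subunit genes was 62.8%, 66.4% and 66.5% with dopamine, against 66.9%, 67.1% and 69.5% in control, while PFKM took 18.1%, 15.5% and 17.8%, against 15.3%, 14.2% and 13.4% (exact permutation p = 0.1 for each, adjusted 0.3). The difference in the PFKP share was -2.61 percentage points and that in the PFKM share 2.86 points. These genes also differ in GC content (51.5% for PFKM, 57.5% for PFKP and 64.1% for PFKL), for which the shares were not corrected.

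The other ratios had overlapping groups. LDHA over LDHB was 1.37, 1.3 and 1.28 with dopamine, against 1.34, 1.28 and 1.64 in control (difference of the log2 ratio -0.1, exact permutation p = 0.7), so LDHA was the more abundant subunit message in all 6 libraries. EPAS1 exceeded HIF1A in all 6, by 3.06, 2.82 and 2.18 times with dopamine and 2.62, 3.12 and 4.66 times in control (exact permutation p = 0.4). ENO1 far exceeded ENO2, and ALDOA exceeded ALDOC: ENO2 over ENO1 averaged -5.36 ± 0.07 with dopamine and -5.33 ± 0.1 in control, and ALDOC over ALDOA -5.6 ± 0.2 and -5.56 ± 0.17 (log2 ratios, SD, n = 3, exact permutation p = 0.6 and 0.8). HK2 over HK1, BNIP3 over BNIP3L and EGLN3 over EGLN1 differed by 0.15, -0.32 and -0.15 in log2 ratio (exact permutation p = 0.3, 0.2 and 0.6), and the PFKL share by -0.25 points (p = 0.9 in the same exact test).

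**Figure D5:**
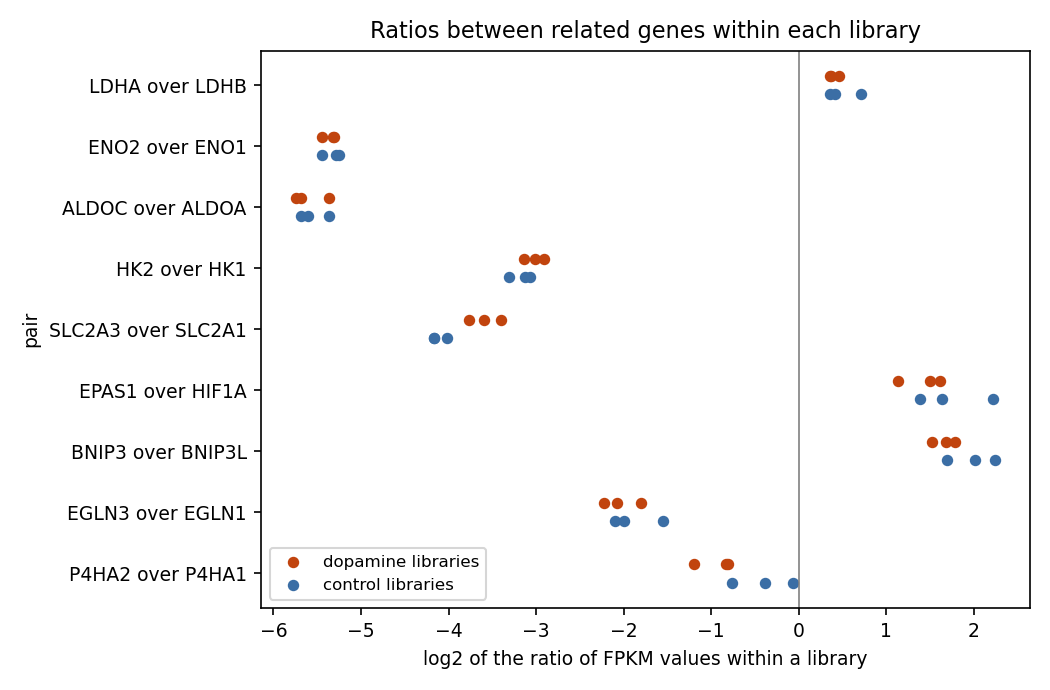
Log2 ratio of FPKM values within each library for 9 pairs of related genes, with dopamine libraries above control libraries for each pair. The groups lie apart for SLC2A3 over SLC2A1 and for P4HA2 over P4HA1, and overlap for the other 7 pairs.

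Further genes of these pathways were read from 5 lists, and none of their tested genes passed the adjusted threshold (limma). At an unadjusted p under 0.05, 3 of 10 tested glycolytic isoenzymes and transporters had a higher and 1 a lower level, against 24.4% and 8.05% of all genes. After the correction it was also 3 and 1, against 8.37% and 8.45%. Of the 10, 6 had a higher and 4 a lower mean, against 60% and 40% of all genes. Their median log2 fold change was 0.06, and 0.08 after the correction, so this list did not lean lower as the 14 enzymes did. BPGM, which makes 2,3-bisphosphoglycerate, had 5.11, 4.73 and 6.41 FPKM with dopamine, against 3.62, 3.69 and 2.61 FPKM in control (log2 fold change 0.64, adjusted p = 0.11, and 0.37 after the correction). C12orf5 (TIGAR, a brake on glycolysis induced by p53) stood at 8.87 ± 0.839 and 6.47 ± 0.501 FPKM in dopamine and control cells. PKM, the pyruvate kinase of the last step, had 426, 440 and 384 FPKM with dopamine, against 447, 489 and 517 FPKM in control (log2 fold change -0.22, adjusted p = 0.141, and -0.20 after the correction), the same side of 0 as most enzymes. SLC2A10, a transporter, stood at 4.1 ± 0.471 and 3.27 ± 0.353 FPKM.

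Of 16 tested genes of pyruvate and lactate fate, 4 were higher and none lower at an unadjusted p under 0.05, and after the correction 2 were higher and 1 lower. The 4 of 16 (25%) stood at the background, since 24.4% of all tested genes were higher as deposited, and after the correction 8.37% were higher and 8.45% lower. SLC16A1 (the lactate transporter MCT1) had 7.87, 9.07 and 10.8 FPKM with dopamine, against 7.23, 6.43 and 5.27 FPKM in control (log2 fold change 0.52, adjusted p = 0.11, and 0.22 after the correction). PDHB and DLD, subunits of pyruvate dehydrogenase, and MPC1, the mitochondrial pyruvate carrier, had log2 fold changes of 0.30, 0.60 and 0.35, and 0.03, 0.20 and 0.16 after the correction. Of 8 tested pentose phosphate genes (12.5% each way, against 24.4% higher and 8.05% lower of all genes) 1 was higher at an unadjusted p under 0.05 (RPE, 8.5 ± 1.44 FPKM with dopamine and 6.34 ± 1.6 in control) and 1 lower (PGLS, 28.6 ± 2.97 FPKM and 34.2 ± 1.15). H6PD and RPIA had log2 fold changes of -0.16 and 0.20.

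At an unadjusted p under 0.05, 13 of 31 other tested hypoxia-induced genes had a higher and 3 a lower level, and after the correction 5 were higher and 3 lower. Of all tested genes 24.4% were higher and 8.05% lower as deposited, and 8.37% and 8.45% after the correction. Their median log2 fold change was 0.11, and 0 after the correction. PLIN2, a lipid droplet coat protein, had 28.6, 30.1 and 29.2 FPKM with dopamine, against 23.6, 20.7 and 20.7 FPKM in control (log2 fold change 0.43, unadjusted p = 0.00043, adjusted p = 0.11, and 0.31 after the correction). CXCR4 (a chemokine receptor), TFRC (the transferrin receptor, also controlled by iron) and PPP1R3C (a glycogen regulator) had log2 fold changes of 0.47, 0.75 and 0.43, and 0.21, 0.39 and 0.10 after the correction. Of 12 tested genes of HIF stability and partners 1 was higher at an unadjusted p under 0.05 (8.33%, against 24.4% of all genes), VHL, at 13.2 ± 0.649 FPKM with dopamine and 11.2 ± 0.505 FPKM in control (adjusted p = 0.117, and a log2 fold change of 0.24 as deposited and 0.06 after the correction). TCEB1, CUL2 and SIAH1 had log2 fold changes of 0.21, 0.35 and 0.26, and 0.11, -0.03 and -0.16 after the correction.

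The count of members past the adjusted threshold turned on single libraries and weights. It was 0 as deposited and 7 without control replicate 1 (LDHA, LDHB, HIF1A, EPAS1, EGLN1, BNIP3L and P4HA1, each higher with dopamine), where 18.5% of all tested genes passed. With sample quality weights it was 9 (those 7, BNIP3 and, lower, PFKP), where 22.9% of all genes passed.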

How the data were processed

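RNA of 6 SK-N-SH samples (3 with dopamine, 3 control) was extracted with TRIzol, depleted of ribosomal RNA and made into stranded total RNA libraries, per the labels' protocols. The authors deposited 1 table of FPKM values with hg19 coordinates. Per the submitters' processing notes, which give no roles, hg19 was the build and the tools were DESeq2 1.40.2, FastQC 0.11.9, HTSeq 0.11.2 and STAR 2.7.1a. The sources used here give no annotation, strand setting or FPKM total. Genes with overlapping neighbours or processed copies (GAPDH has 17 named pseudogenes in the table, TPI1 3, PGAM1 5 and LDHA 5) therefore have uncertain values. FPKM is relative to the library total.

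Groups came from the sample titles. The scale was log2(FPKM + 0.5), which understates the fold change of low genes. The 11791 genes averaging at least 1 FPKM were fitted in R 4.3.3 by limma 3.58.1 (intensity trend, two-sided, Benjamini-Hochberg over all tested genes, threshold 0.05), checked on simulated data. Depth was recovered from the steps between low values of 2797 short pseudogenes. Of the 1011 to 1163 low values above 0 used in a library, 92.3 to 94.1% were whole fragments within 0.03. The depth was chosen for such agreement, so this share is not an independent check. The GC and length correction regressed each library's deviations on log2 length and GC content by loess (span 0.5), using a gene's longest GENCODE transcript, matched by gene identifier (98.2% of tested genes, all 36 members). Values over all genes after the correction, such as their median, are largely set by this fit. The correction also takes out any difference between the groups that follows GC content or length. Ratios were tested by exact permutation in scipy 1.17.1. Members and lists were chosen with earlier results of these data known. Values per library are given for the 12 members with the smallest p, for a listed set of factors and for genes of described ratios, and up to 4 genes with the smallest p are named per further list. Alternatives changed the pseudocount, filter, scaling, prior, weights, block, libraries and GC correction.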

Additional observations from a re-analysis of the deposited data

How the results depend on the processing

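Of 33 tested members 24 kept their direction in every alternative that could fit them, 20 settings at most, and 9 did not. Median-of-ratios scaling gave a log2 fold change of -0.04 for PFKM, -0.04 for PGK1 and -0.05 for ADM. After quantile normalization it was -0.002 for PFKM, 0.003 for PGAM1, -0.04 for ADM and -0.1 for NDRG1. With sample quality weights it was 0.02 for PGAM1, 0.12 for CA9 and 0.04 for P4HA2. Without both replicates numbered 3 it was 0.01 for PGAM1, 0.02 for CA9 and 0.02 for P4HA2. After the GC and length correction it was 0.03 for GAPDH, -0.26 for PGK1 and 0.03 for CA9. Leaving out 1 library turned HK2 (-0.06 to 0.02), PGK1 (-0.01 to 0.13), ADM (-0.09 to 0.13), PGAM1 (-0.09 to 0.01), CA9 (-0.27 to 0.08) and P4HA2 (-0.09 to 0.06).

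All tested genes past the adjusted threshold numbered 12 as deposited, 6 with no filter, 27 after quantile normalization, 5 with no intensity trend, 2706 with quality weights, 7 without both replicates numbered 3, 26 after the correction and 3 to 2177 without 1 library. Members past it numbered 9 with weights and 0 to 7 without 1 library. Those at an unadjusted p under 0.05 numbered 12 as deposited, 5 without both replicates numbered 3 and 5 to 14 without 1 library. Higher members numbered 8 as deposited, 4 without both replicates numbered 3, 3 after the correction and 4 to 8 without 1 library. Lower members numbered 4 as deposited, 10 with median-of-ratios scaling, 8 with quantile normalization, 1 with no trend, 1 without both replicates numbered 3 and 1 to 6 without 1 library. The members' median was -0.02, against 0.037 with a filter of 0.3 FPKM or none, -0.104 with median-of-ratios scaling, -0.06 with quantile normalization, 0.056 with weights, 0.022 without both replicates numbered 3, 0.011 after the correction and -0.053 to 0.045 without 1 library. The cause of these shifts was not tested. Shares of all tested genes at an unadjusted p under 0.05 were not counted with no trend or without 1 library. Counts of members under those settings therefore stand without a background, and as deposited 24.4% of all genes were higher and 8.05% lower.

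Whether the replicate numbers pair the samples is not given by the sample titles. Deviations of same-numbered libraries correlated at -0.203, 0.282 and -0.367, and those of differently numbered libraries at -0.378 to 0.419. With 3 libraries a group, these correlations cannot settle whether samples were paired. With the number as a replicate block, 3 genes and 0 members passed. At an unadjusted p under 0.05, 8 members had a higher and 2 a lower level. The shares of all tested genes were not counted under this setting, and as deposited they were 24.4% higher and 8.05% lower. Among the ratios, leaving out 1 library turned LDHA over LDHB (-0.17 to 0.01), EGLN3 over EGLN1 (-0.27 to 0.02), ENO2 over ENO1 (-0.09 to 0.01), ALDOC over ALDOA (-0.15 to 0.06) and the PFKL share (-0.99 to 0.71 points). Depth limits the low and short genes most: taking the longest transcript as a gene's length, since the authors' lengths are not given, the values stood for 22 to 36 fragments a library for ANKRD37, 70 to 127 for CA9 and 78 to 101 for EGLN3.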
